A study of Homo sapiens with 6 samples.

Results

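The 39 human HOX genes lie in 4 clusters, HOXA on chromosome 7, HOXB on chromosome 17, HOXC on chromosome 12 and HOXD on chromosome 2. They were examined for SON and HMGB2 peaks in IMR90 cells. Members were the protein-coding genes of the RefSeq annotation of GRCh38.p14 whose symbols are HOXA, HOXB, HOXC or HOXD followed by a number, 39 of 19974 protein-coding genes on chromosomes 1 to 22 and X. HOXA held 11 of them, HOXB 10, HOXC 9 and HOXD 9. A peak was counted for a gene when it shared at least 1 bp with the gene's span or the 5 kb on either side, and for a cluster when it lay between the outer genes or within 5 kb of them. The genes were taken by symbol and not by their peak values, though with earlier results of these data known.

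IMR90 is an established line of fibroblasts from human embryonic lung. SON, a scaffold protein of nuclear speckles, was mapped by ChIPmentation in control cells and on days 3 and 6 of a treatment that the labels name ICM without expanding it, and HMGB2, a DNA-bending protein of the high mobility group, was mapped in untreated cells. ChIPmentation adds sequencing adapters with a transposase to chromatin held by an antibody, and the study asked how SON and HMGB2 relate to CTCF, genome folding and expression. SON chromatin was crosslinked by formaldehyde and nothing else, whereas the HMGB2 protocol put the crosslinker EGS before it, so target and fixation cannot be told apart. There was 1 peak list per group, all from a single cell line. No difference between groups could be tested, and counts are descriptions. The input library for HMGB2 and a further HMGB2 sample named for the crosslinker DSG were not analysed here.

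On chromosomes 1 to 22 and X the lists held 22216 untreated SON peaks, 11028 SON peaks on day 3 of ICM, 5481 on day 6, and 5992 HMGB2 peaks. Read depth is unknown, since the lists hold no read counts, and the shrinking of the SON lists goes with every fall in a SON count below. Strength is the −log10 p that the authors deposited for each peak, and it is compared only within a list, as a rank or as the percentage of the list's peaks that were weaker (the percentile). In the SON lists this value is the lower of those of 2 replicates. The 2 replicate values were identical for 56.0% of untreated peaks, 28.9% at 3 days and 9.47% at 6 days, and how the replicates were made is not stated. A peak missing from a list did not pass the authors' calling, and such a gap does not show that SON or HMGB2 was absent. Peaks carry no expression values, so the labelled cell type could not be checked through its marker transcripts.

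HOX genes encode homeodomain transcription factors that give cells their position along the body axis. Within a cluster the genes stand in the order of the body regions they serve: low-numbered genes act towards the head, and high-numbered ones towards the tail and the ends of the limbs. Polycomb complexes keep HOX clusters silent, Trithorax complexes of the KMT2 family oppose them, and CTCF sites inside the clusters mark borders between the active and silent stretches. Adult and fetal fibroblasts keep a HOX pattern that reflects their site of origin, and HOXA5 and HOXB5 are known for roles in lung development. Genes of one number in different clusters are paralogues, copies descended from one ancestral gene.

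The peaks fell in the low-numbered parts of HOXA and HOXB, and neither HOXC nor HOXD held a peak in any of the 4 lists. The HOXA cluster spanned 107.1 kb of chromosome 7 and held 6 SON peaks without treatment, 1 on day 3, 0 on day 6, and 4 HMGB2 peaks. The HOXB cluster spanned chr17:48528526-48728750 (200.2 kb) and held 1 SON peak in untreated cells, none at 3 or 6 days, and 9 HMGB2 peaks. HOXC, at chr12:53938831-54056030 (117.2 kb), and HOXD, at chr2:176087487-176190907 (103.4 kb), stood at 0 throughout. Of the 21 cluster peaks in all, 11 lay in HOXA and 10 in HOXB. HOXA was thus the cluster with most SON peaks, and HOXB the one with most HMGB2 peaks. With every list cut to its 5481 strongest peaks, the length of the shortest, the clusters held 2 untreated SON peaks (at HOXA3 and HOXA5), 1 from day 3, 0 from day 6 and 12 HMGB2 peaks.

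**Figure D1:**
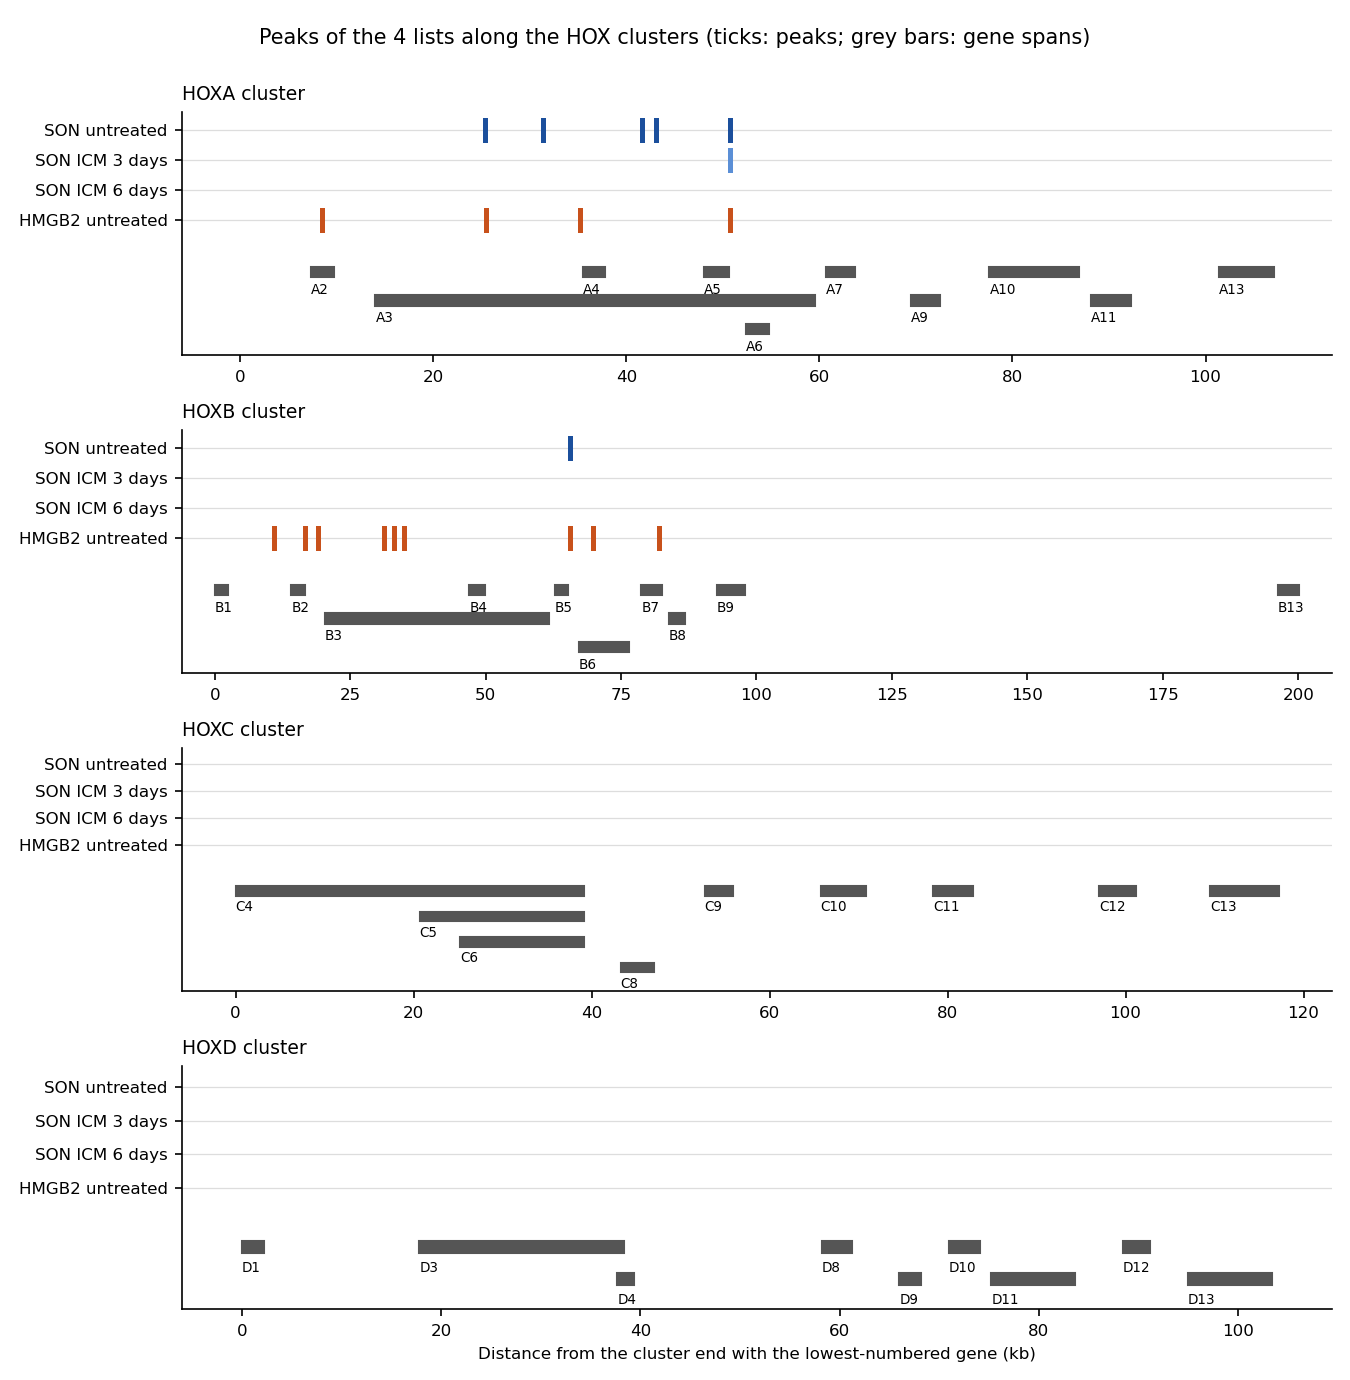
Peaks of the 4 lists (coloured ticks, 1 row per list) and gene spans (grey bars) along each HOX cluster, against the distance in kb from the cluster end with the lowest-numbered gene. HOXA and HOXB hold ticks in the low-numbered part only, the rows of HOXC and HOXD are empty, and 1 HOXA gene with its untreated SON peak is not drawn.

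In HOXA the last peak of any list ended 51.0 kb from the low-numbered end, at HOXA5, and the remaining 56.1 kb up to HOXA13 held none. In HOXB the peaks lay between 10.7 and 82.0 kb from the HOXB1 end, from before HOXB2 to HOXB7, and the 118.2 kb from there to HOXB13 held none. By gene, 9 of the 20 HOX genes numbered 1 to 7 had a SON peak within 5 kb in untreated cells, 3 at 3 days, 0 at 6 days, and 10 had an HMGB2 peak. Of the 19 genes numbered 8 to 13 none had a SON peak in any list, and 1, HOXB8, had an HMGB2 peak, which lay 1.80 kb outside the gene. The low-numbered counts include HOXC and HOXD genes, all at 0. Of all protein-coding genes, 57.1%, 41.0% and 21.5% had a peak in the SON lists of untreated cells, day 3 and day 6, and 23.3% an HMGB2 peak. The SON counts of the 20 low-numbered genes lie below these shares, and their HMGB2 count lies above. Neither difference was tested.

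The untreated SON peak nearest to HOXD lay 853.8 kb away, those of days 3 and 6 lay at 853.7 and 853.8 kb, and the nearest HMGB2 peak lay 1239.7 kb away. Around HOXC the nearest SON peak was at 132.9 kb without treatment and at 166.5 kb on days 3 and 6, and the nearest HMGB2 peak at 158.6 kb. These distances set HOXD in a long stretch without peaks and HOXC between occupied neighbours. A stretch without SON peaks was common at this size: of windows as long as the HOXC region (127.2 kb with its flanks) that met a protein-coding gene, 43.5% held no SON peak in untreated cells, and of windows as long as the HOXD region (113.4 kb) 45.6% held none. The emptiness of HOXC and HOXD in the untreated SON list is therefore near the background of windows of that length. The windows were not matched for number of genes, of which each of the 2 regions holds 9. By gene, none of the HOXC and HOXD genes had an untreated SON peak, against 57.1% of all protein-coding genes.

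Counts as high as those of HOXA and HOXB were less common. Windows as long as the HOXA region (117.1 kb) held a median of 1 untreated SON peak, and 1.99% of 16295 windows held at least the 6 seen in HOXA. At least the 4 HMGB2 peaks of HOXA were held by 1.63% of those windows, whose median was 0. At least the 9 HMGB2 peaks of HOXB were held by 0.532% of 9969 windows as long as the HOXB region (210.2 kb). The windows were laid end to end and were not matched for number of genes. The clusters were set against them after their counts were seen, so the percentages describe these lists and test nothing. The fullest windows held 13 SON peaks and 24 HMGB2 peaks at the HOXA length, and 34 HMGB2 peaks at the HOXB length.

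Per 100 kb, the HOXA region held 5.12 untreated SON peaks against 1.16 over the windows of all protein-coding genes, and the HOXB region held 0.476. HMGB2 stood at 3.42 per 100 kb in HOXA and 4.28 in HOXB against 0.354 over all genes. At the overall density the 4 regions together would have held 6.58 untreated SON peaks, and they held 7. The same figures were 3.45 against 1 on day 3, and 1.64 against 0 on day 6. For HMGB2 they would have held 2.01, and held 13. Thus the total of untreated SON peaks was near the overall density per kb, with 6 of the 7 in 1 cluster. The total of HMGB2 peaks was 6.46 times what that density gives. Genes stand closer in the clusters: the 4 regions hold 39 genes in 567.9 kb, and the windows of all genes 19974 in 1389590 kb. By gene, untreated SON stood at 23.1% of HOX genes against 57.1% of all, and HMGB2 at 28.2% against 23.3%. The part of gene density in these ratios was not tested.

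Counted by gene, 9 of the 39 HOX genes (23.1%, exact binomial 95% interval 11.1% to 39.3%) had a SON peak in untreated cells, against 57.1% of all protein-coding genes. At 3 days 3 HOX genes did (7.69%, interval 1.62% to 20.9%), against 41.0%, and at 6 days none (interval 0% to 9.03%), against 21.5%. An HMGB2 peak stood at 11 HOX genes (28.2%, interval 15% to 44.9%), against 23.3% of all genes, which is near the background. The longest annotated spans are those of HOXA3 (45.6 kb), HOXB3 (41.4 kb) and HOXC4 (39.1 kb), which run across neighbouring HOX genes. Among the 13244 protein-coding genes no longer than HOXA3, 51.0%, 36.7% and 18.1% had a peak in the SON lists of untreated cells, day 3 and day 6, and 22.1% had an HMGB2 peak. Against this background too, the SON share of HOX genes was the lower in each list. It caps gene length without matching it, since most HOX spans are far shorter than 45.6 kb. The part of length in the difference was not tested. The intervals cover counting error only and treat genes as separate, although neighbours within 5 kb share peaks.

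Of the 39 genes, 12 had a peak in at least 1 list. HOXA2, HOXA3, HOXA4, HOXA5, HOXA6, HOXB3, HOXB5 and HOXB6 had both an untreated SON peak and an HMGB2 peak, and HOXB2, HOXB7 and HOXB8 had HMGB2 alone. HOXA3, HOXA5 and HOXA6 were the 3 genes left with SON at 3 days, all through 1 peak at HOXA5. The 27 genes without a peak were HOXA7, HOXA9, HOXA10, HOXA11, HOXA13, HOXB1, HOXB4, HOXB9, HOXB13 and all of HOXC and HOXD. Within the gene spans alone, without the 5 kb, the counts were 3 genes for untreated SON, 2 at 3 days, 0 at 6 days and 7 for HMGB2.

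Both proteins had a peak at one annotated start inside HOXA3, and this is also the one RefSeq promoter window of a HOX gene that shared a base with any peak. The window runs from 250 bases before to 50 bases after the start, at chr7:27118308-27118607 on the minus strand, and is shown because a SON peak covers 290 of its 300 bases. Capitals mark the 197 bases under both the untreated SON peak and the HMGB2 peak. The window of another HOXA3 start, at chr7:27119546-27119845 on the same strand, follows as the comparison, since it met no peak. Both are RefSeq sequences of GRCh38.p14, written 5′ to 3′.
HOXA3 start with both peaks: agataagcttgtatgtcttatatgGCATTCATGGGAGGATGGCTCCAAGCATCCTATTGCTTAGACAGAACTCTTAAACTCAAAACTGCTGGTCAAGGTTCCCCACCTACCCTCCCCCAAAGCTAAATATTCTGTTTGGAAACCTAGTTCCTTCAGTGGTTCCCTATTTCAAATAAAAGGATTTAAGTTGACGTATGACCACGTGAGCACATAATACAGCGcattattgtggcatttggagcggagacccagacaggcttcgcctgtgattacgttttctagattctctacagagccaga
HOXA3 start without a peak: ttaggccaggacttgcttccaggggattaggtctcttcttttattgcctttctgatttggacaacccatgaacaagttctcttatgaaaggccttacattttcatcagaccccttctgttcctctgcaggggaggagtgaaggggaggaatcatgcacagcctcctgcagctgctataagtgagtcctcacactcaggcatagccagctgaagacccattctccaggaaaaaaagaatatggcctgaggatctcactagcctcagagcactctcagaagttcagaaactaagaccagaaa

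HOXA3 encodes a factor of the third pharyngeal arch and its derivatives, such as the thymus and parathyroid glands. The occupied window had a GC content of 43.7%, the lowest of the HOX windows, and 6 CpG dinucleotides. The unoccupied window had a GC content of 47.3% and no CpG. The letters TAAT, the core that many homeodomains bind, occurred 3 times in the occupied window and once in the unoccupied one, counting both strands. AGGNGGC, letters of the CTCF core motif, were not in the occupied window and occurred once in the unoccupied one. GGGCGG (the GC box), CCAAT (the NF-Y box) and TATAAA (the TATA box) were in neither.

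Promoter entries were found for 20 of the 39 HOX genes, as 26 distinct windows, since HOXC4 and HOXC5 share one. 1 window of 26 met an untreated SON peak, against 33.9% of 22012 windows of all protein-coding genes. The same 1 window met an HMGB2 peak, against 11.2% of all windows. HOXA5, HOXB2 and HOXB5, which had peaks over their 5′ ends or 91 bp from them, had no entry. HOXB had 1 entry, that of HOXB1. The 26 windows thus leave out those sites and do not count the HOX 5′ ends with a peak. HOX windows had a median GC content of 58.0% (43.7% to 76.3%) against 62.3% over all windows, and a median of 22.5 CpG against 21. TAAT was in 20 HOX windows (76.9%) against 42.7% of all, and CCAAT in 17 (65.4%) against 34.7%. TATAAA was in 5 (19.2%) against 9.49%. AGGNGGC was in 11 (42.3%) against 41.1%, and GGGCGG in 13 (50%) against 56.3%. The 5 motifs were searched on both strands and do not contain one another. Matches are descriptions of letters and show no binding.

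The strongest HOX site for untreated SON and for HMGB2 was the 5′ end of HOXA5, a regulator of lung and axial skeleton formation. The untreated SON peak covered that end at chr7:27143500-27143968, with a −log10 p of 23.6, rank 2551 of 22216 and percentile 88.5. At 3 days the SON peak lay at chr7:27143494-27143937, with a −log10 p of 9.35, rank 5213 of 11028 and percentile 52.7. At 6 days no SON peak was listed there, and the nearest was 534.0 kb away. The HMGB2 peak lay at chr7:27143579-27143975, with a −log10 p of 16.9, rank 625 of 5992, percentile 89.5 and a fold enrichment of 4.76. It ranked highest of the HOX peaks of the untreated SON list and of the HMGB2 list, and it was the one HOX site present in more than 1 SON list. Both replicate values of the untreated peak were 23.6 and both of the 3-day peak were 9.35, so the pairs add no measure of spread. The global IDR, the authors' rate of irreproducible calls, was 0.00373 for the untreated peak and 0.0651 for the 3-day peak, which an IDR limit of 0.05 would remove.

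The peaks at HOXA5 lay almost on top of each other. Untreated and 3-day SON peaks shared 438 bp, 93.4% of the first and 98.6% of the second, and their summits were 71 bp apart. The untreated SON and HMGB2 peaks shared 390 bp, 83.2% of the SON peak and 98.2% of the HMGB2 peak, with summits 46 bp apart. The 3-day SON and HMGB2 summits were 25 bp apart. The site also lies within the antisense gene HOXA-AS3 and within the long annotated span of HOXA3, and a peak cannot be assigned to one of the overlapping genes. HOXA6, whose nearest untreated SON peak was 1.43 kb away, was counted through the same peaks.

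At the HOXA3 start printed above, the untreated SON peak at chr7:27118200-27118597 had a −log10 p of 18.2, rank 4253 and percentile 80.9. No SON peak was listed there at 3 or 6 days, and the nearest lay 24.9 kb away at 3 days. The HMGB2 peak at chr7:27118387-27118583 had a −log10 p of 6.78, rank 5119, percentile 14.5 and a fold enrichment of 3.06. The site was thus among the stronger untreated SON peaks and among the weaker HMGB2 peaks. The HMGB2 peak lay wholly inside the SON peak and took up 49.5% of it, with summits 13 bp apart. The SON summit was 71 bp and the HMGB2 summit 58 bp from the annotated start.

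HOXB5, a paralogue of HOXA5, had the third site with both proteins. The untreated SON peak at chr17:48593870-48594233 had a −log10 p of 12.3, rank 8147 and percentile 63.3, and its replicate values were 13.2 and 12.3. The HMGB2 peak at chr17:48593870-48594261 had a −log10 p of 10.8, rank 2260, percentile 62.3 and a fold enrichment of 3.56. SON was not listed there at 3 or 6 days, when its nearest peaks were 298.0 and 87.7 kb away. Both untreated peaks began 91 bp upstream of the HOXB5 5′ end, inside the antisense gene HOXB-AS3. They shared 364 bp, all of the SON peak and 92.9% of the HMGB2 peak, and the summits were 13 bp apart. HOXB3 and HOXB6 were counted for SON through this peak.

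**Figure D2:**
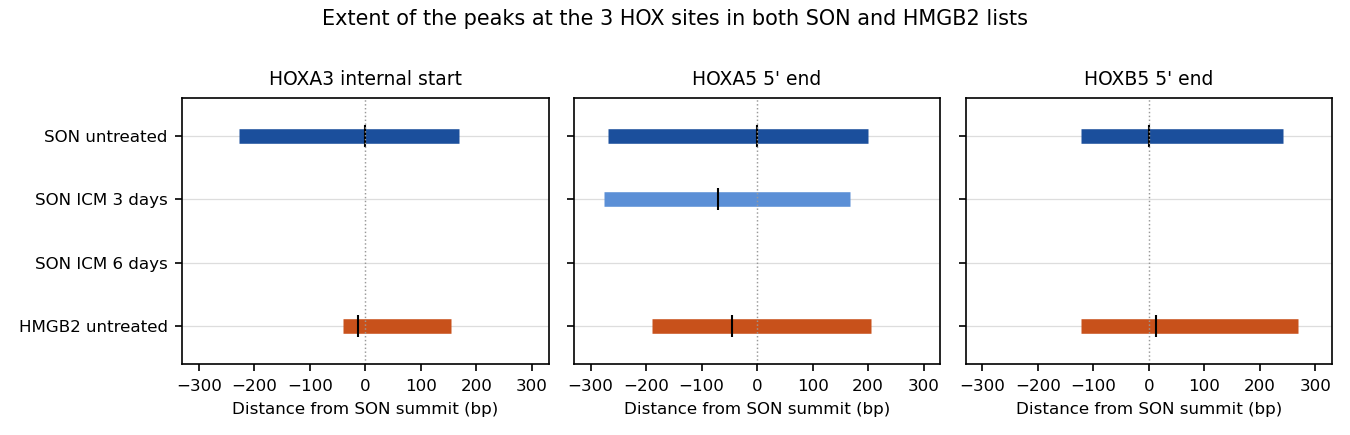
Extent in bp of the peaks of each list (bars, 1 row per list) at the 3 HOX sites with both SON and HMGB2, centred on the untreated SON summit (dotted line), with black ticks at the summits. The untreated SON and HMGB2 summits lie 13 bp apart at HOXA3, 46 bp at HOXA5 and 13 bp at HOXB5, and a 3-day SON bar is present at HOXA5 alone.

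The remaining untreated SON peaks of HOXA had no HMGB2 peak on them and no SON peak at 3 or 6 days, and 3 of them lay inside the long span of HOXA3. These 3 were weak.

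A peak at chr7:27124119-27124545 had a −log10 p of 6.42 (percentile 14.9), inside HOXA3 and the antisense gene HOXA-AS2. The peaks at chr7:27134432-27134756 (−log10 p 5.59, percentile 6.13) and chr7:27135863-27136195 (−log10 p 7.13, percentile 23.3) lay between HOXA4 and HOXA5, under the long HOXA3 span. All 3 had a global IDR of 0.431, the largest in the list, at which 32.7% of all untreated SON peaks stood. At the first the replicate values were both 6.42, at the second 5.59 and 8.17, and at the third 8.70 and 7.13. These 3 are the SON peaks of the clusters with the least support from the authors' replicate comparison.

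HMGB2 had 10 peaks in the clusters apart from the 3 sites shared with SON. In HOXA2, a gene of hindbrain and second-arch identity, a peak at chr7:27101345-27101522 had a −log10 p of 9.16, percentile 45.7 and a fold enrichment of 5.24. Just outside the 3′ end of HOXA4, 0.246 kb away, a peak at chr7:27128086-27128279 had a −log10 p of 12.01, percentile 71.2 and a fold enrichment of 6.95, the highest fold among the HOX peaks. That peak also lay over HOXA-AS2.

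The HMGB2 peaks of HOXB began between HOXB1 and HOXB2, at chr17:48539244-48539525, with a −log10 p of 10.6 and percentile 61.1. HOXB2 and HOXB3 act in the hindbrain, as their HOXA paralogues do. A peak at chr17:48545077-48545290 covered the 5′ end of HOXB2, with a −log10 p of 9.86 and percentile 53.2, and one at chr17:48547507-48547681 lay between HOXB2 and HOXB3, with a −log10 p of 6.98 and percentile 18.4. Both were inside the antisense gene HOXB-AS1. HOXB3 itself held 3 HMGB2 peaks. They lay at chr17:48559732-48559906, chr17:48561380-48561710 and chr17:48563324-48563700, with −log10 p of 6.07, 11.4 and 10.9. Their percentiles were 8.73, 67.3 and 63.1, and the first and second lay over HOXB-AS2.

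Beyond HOXB5 there were 2 further HMGB2 peaks, both below the middle of the list. One in HOXB6, at chr17:48598209-48598412, had a −log10 p of 5.20 and percentile 2.80, the lowest of all cluster peaks. One in HOXB7, at chr17:48610365-48610544 and 473 bp inside its 5′ end, had a −log10 p of 8.68 and percentile 39.2, and it was the peak nearest to HOXB8. HOXB4, which lies within the long HOXB3 span, had no peak of any list within 5 kb, and its nearest HMGB2 peak was 11.8 kb away. No SON peak was listed on any of these 10 HMGB2 peaks, at any time.

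**Figure D3:**
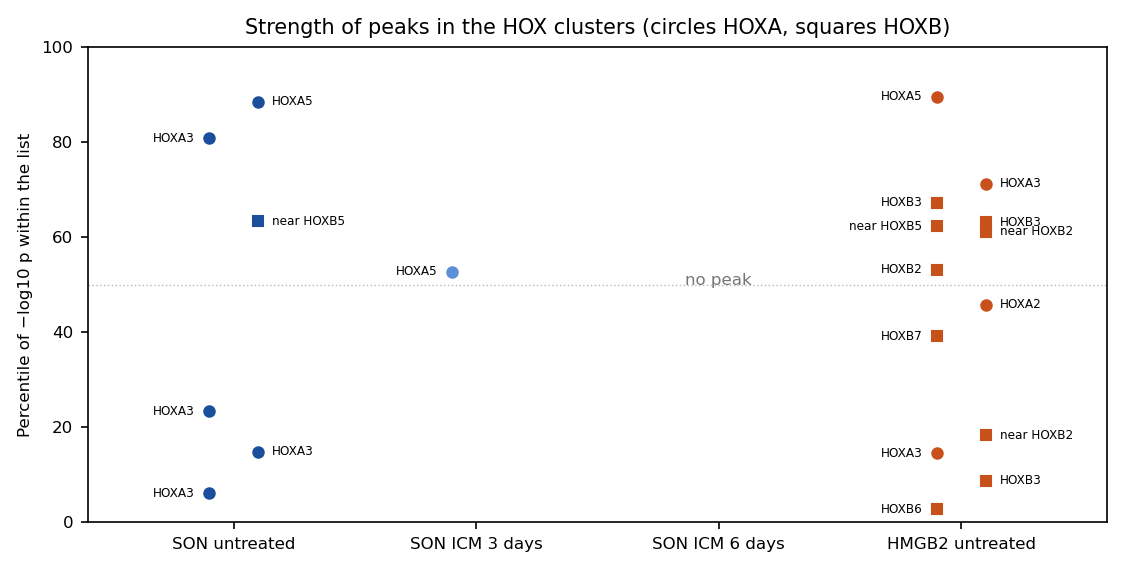
Strength of peaks in the HOX clusters, as the percentile of −log10 p within the peak's own list (vertical axis, 0 to 100, dotted line at the list's median), by list (horizontal axis), with circles for HOXA and squares for HOXB and 1 untreated SON peak not drawn. The untreated SON peaks range from 6.13 to 88.5 and the HMGB2 peaks from 2.80 to 89.5, with the HOXA5 peak highest in both, and sideways shifts only keep the labels apart.

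As a whole, HOX peaks were of ordinary strength for their lists. The 7 untreated SON peaks had a median −log10 p of 8.30 against 9.90 for the list, a median percentile of 36.3 and a median width of 398 bp against 412 bp. The 13 HMGB2 peaks had a median −log10 p of 9.86 against 9.52, a median percentile of 53.2 and a median width of 204 bp against 242 bp. Of the untreated SON peaks 6 lay within a HOX gene span and 3 within 1 kb of a HOX 5′ end. Of the HMGB2 peaks 10 lay within a HOX gene span and 4 within 1 kb of a 5′ end. Annotated non-coding genes lay under 4 of the 7 SON peaks and 8 of the 13 HMGB2 peaks. The same counts of position were not made over all peaks of the lists, so they show no trait particular to HOX peaks.

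Of the 7 untreated SON peaks, 1 (14.3%, exact binomial 95% interval 0.361% to 57.9%) was found at 3 days, against 45.4% of all untreated SON peaks. None was found at 6 days (interval 0% to 41.0%), against 21.9%. HMGB2 met 3 of the 7 (42.9%, interval 9.90% to 81.6%), against 16.5% of all untreated SON peaks. In the other direction, untreated SON met 3 of the 13 HMGB2 peaks (23.1%, interval 5.04% to 53.8%), against 62.3% of all HMGB2 peaks. SON at 3 days met 1 of 13 (7.69%, interval 0.195% to 36.0%), against 44.1%, and at 6 days 0 of 13 (interval 0% to 24.7%), against 23.5%. By these counts 10 of the 13 HMGB2 peaks in the clusters had no untreated SON peak on them. The interval held the background for the untreated SON peaks found at 3 and at 6 days and met by HMGB2. It also held it for the HMGB2 peaks met by SON at 6 days. It did not for the HMGB2 peaks met by SON in untreated cells and at 3 days. The intervals test nothing and treat peaks as separate, although 9 of the 13 HMGB2 peaks lay in HOXB.

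Since the share found later differed with strength over the whole list, each HOX peak was also set beside the untreated SON peaks within 5 percentile points of it. Around the HOXA5 peak 91.6% of such peaks recurred on day 3 and 51.7% on day 6. Around the HOXA3 start the shares were 80.0% and 35.0%, yet its peak was in neither later list. Around the HOXB5 peak they were 52.0% and 17.7%. Around the 3 weak peaks they were 12.7% to 20.3% and 4.84% to 7.41%. The 3 weak peaks thus belonged to strength classes that were seldom listed later. The HOXA3 and HOXA5 peaks did not: the first was missing from both later lists, and the second was listed on day 3 and missing on day 6. HMGB2 met 30.8% of the peaks as strong as that of HOXA5, 23.1% of those as strong as that of HOXA3 and 17.1% of those as strong as that of HOXB5.

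The non-coding genes of the clusters overlap or adjoin the HOX genes and were counted through the same peaks, so they add no further sites. The share over all non-coding genes was not computed, so these counts cannot be called high or low. Of 23 such genes, 4 had an untreated SON peak within 5 kb (HOTAIRM1, HOXA-AS2, HOXA-AS3 and HOXB-AS3), 1 at 3 days (HOXA-AS3), 0 at 6 days, and 6 had an HMGB2 peak. The 6 were HOTAIRM1, HOXA-AS2, HOXA-AS3, HOXB-AS1, HOXB-AS2 and HOXB-AS3. HOTTIP, at the HOXA13 end, HOTAIR, in HOXC, HAGLR, in HOXD, and the miR-10 and miR-196 genes had none in any list. HOTAIR and HOTTIP are long non-coding RNAs known for bringing chromatin regulators to HOX genes.

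Other homeobox genes had no listed peak. The list held 13 genes related to the HOX genes or lying beside them (EVX1, EVX2, CDX1, CDX2, CDX4, PDX1, GSX1, GSX2, MEOX1, MEOX2, MNX1, GBX1 and GBX2), and 0 had a peak in any of the 4 lists (interval 0% to 24.7%). The interval lies below the share of all genes for SON in untreated cells (57.1%) and on day 3 (41.0%), and holds it for SON on day 6 (21.5%) and for HMGB2 (23.3%). EVX1 and EVX2 flank the high-numbered ends of HOXA and HOXD.

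Most genes of the cofactors of HOX proteins had a SON peak. PBX, MEIS and PKNOX proteins are homeodomain factors of the TALE class that bind DNA together with HOX proteins. Of the 9 TALE genes, 8 had an untreated SON peak (88.9%, interval 51.8% to 99.7%, which holds the 57.1% of all genes), 4 at 3 days, 4 at 6 days, and 5 had an HMGB2 peak. The later shares were 44.4% each, and HMGB2 stood at 55.6%, and their intervals, 13.7% to 78.8% and 21.2% to 86.3%, hold the shares of all genes too. The strongest SON peak of PKNOX1 had a −log10 p of 39.4 untreated, 13.0 on day 3 and 6.70 on day 6, and PKNOX2 had 41.8, 21.1 and 10.4. Their HMGB2 peaks reached 7.44 and 13.7. MEIS1 had 2 untreated SON peaks, none on day 3, 1 on day 6, and 4 HMGB2 peaks. MEIS3 had no peak. Only the order within a list can be read from these values, since the depth of the lists is unknown.

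Genes of the regulators that keep HOX genes silent or active had SON peaks in most cases. Of 27 Polycomb genes, 20 had an untreated SON peak (74.1%, interval 53.7% to 88.9%, which holds the 57.1% too) and 17 had one on day 3 (63.0%, interval 42.4% to 80.6%, just above the 41.0% of all genes). On day 6 there were 8, and 8 had an HMGB2 peak, both 29.6% with an interval of 13.8% to 50.2%, which holds the 21.5% and the 23.3% of all genes. EZH2, the catalytic subunit of Polycomb repressive complex 2, had a SON −log10 p of 6.14 in untreated cells and 9.29 at 3 days, and no peak at 6 days or with HMGB2. JARID2, a cofactor of that complex, had 7 untreated SON peaks, 4 in the day-3 list, 3 in the day-6 list, and 1 HMGB2 peak. PCGF2, a subunit of Polycomb repressive complex 1, had SON peaks in each list and the strongest HMGB2 peak of the Polycomb genes, at 29.0. RNF2 and PHC1 had no peak in any list.

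Of 9 Trithorax genes, 8 had an untreated SON peak, 7 at 3 days, 3 at 6 days, and 4 had an HMGB2 peak. These are 88.9%, 77.8%, 33.3% and 44.4%, against 57.1%, 41.0%, 21.5% and 23.3% of all genes, and each interval holds the share of all genes. KMT2A, the histone methyltransferase known for maintaining HOX expression, had the strongest SON peak of the group in each list, at 72.6, 56.8 and 23.9, with an HMGB2 peak at 10.9. RBBP5, a core subunit of the same complexes, had SON values of 29.1, 16.9 and 9.03 and an HMGB2 peak of 54.0. Gene length, which sets how many peaks a window can meet, was not matched between these lists and the HOX genes, and its part in their difference was not tested.

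The genes next to the clusters were mixed. Of 15 neighbours, 10 had an untreated SON peak, 6 at 3 days, 4 at 6 days, and 5 had an HMGB2 peak. These shares, 66.7%, 40%, 26.7% and 33.3%, are near those of all genes, and their intervals hold them. Beside HOXC, a SON peak shared by CBX5, the gene of heterochromatin protein 1 alpha, and HNRNPA1, a splicing regulator, stood at −log10 p 47.2, 80.3 and 26.9, with HMGB2 at 22.3. SKAP2, beside HOXA, had 3 SON peaks in untreated cells, 2 at 3 days, 0 at 6 days, and 3 HMGB2 peaks. LNPK and MTX2, on either side of HOXD, had none, nor had SKAP1, beside HOXB1, or PRAC1, beside HOXB13. ATP5MC3, farther out on the HOXD side, had 1 untreated SON peak (−log10 p 9.21), and TTLL6 and CALCOCO2, on the HOXB side, had 1 each, with CALCOCO2 also having 1 HMGB2 peak.

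**Figure D4:**
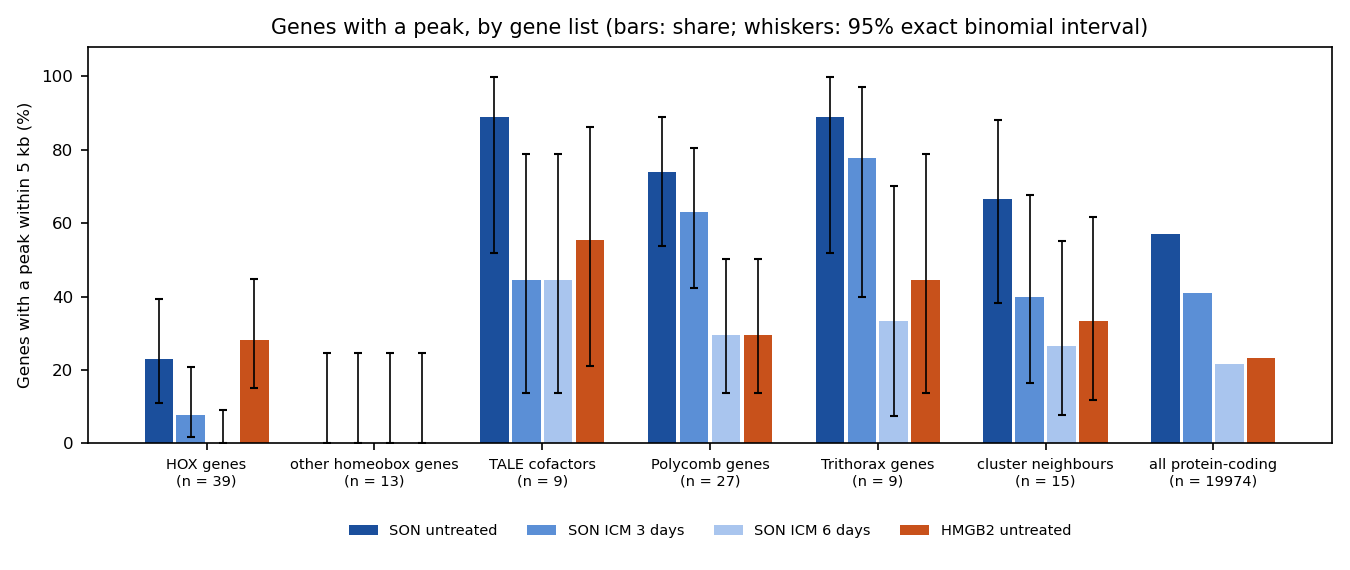
Percentage of genes with a peak in the span or within 5 kb (vertical axis), by gene list (horizontal axis, n in brackets) and peak list (bar colour), with exact binomial 95% intervals as whiskers on all but the last group. The HOX bars stand at 23.1%, 7.69%, 0% and 28.2%, the 13 other homeobox genes stand at 0% in each list, and all protein-coding genes stand at 57.1%, 41.0%, 21.5% and 23.3%.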

How the data were processed

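Peak lists of 4 of the 6 samples were used, 1 per group, grouped by the titles and treatment labels. Per the submitters' processing notes, the build was hg38 and the tools named were bcl2fastq 2.17, Bowtie2, MACS2 and deepTools. Depth and filters on reads are not given in the sources used here. The SON lists have the layout of an IDR run on 2 replicates. The −log10 p and the IDR score of each peak are the authors', and the deposited lists held no strict IDR cutoff (largest global IDR 0.431, 0.447 and 0.63). The HMGB2 list has the MACS2 layout with a q cutoff of 0.03 in its peak names. Its fold enrichment, −log10 p and −log10 q are as deposited by the authors, and pooling of replicates is not stated.

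Peaks on chromosomes 1 to 22 and X were joined to RefSeq positions (GRCh38.p14) by shared bases, with Python 3.11.15, numpy 2.4.6, pandas 2.3.3 and scipy 1.17.1. Figures used matplotlib 3.10.9. Overlap counting was tested on simulated data. Exact binomial intervals cover counting error only. Cluster peaks are named 1 by 1 except at items that are not reported here, and other genes come from lists of cofactors, regulators and neighbours. The members and lists were chosen with earlier results of these data known. Windows of cluster length and peaks of like strength were added after the values were seen. Alternatives covered stricter peaks, equal list length, the window at genes, the flank, the overlap and the measure of strength.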

Additional observations from a re-analysis of the deposited data

How the results depend on the processing

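Of 81 alternative values, 65 were labelled unchanged and 16 moved. The ratio of 1.5 applied to counts, and shares were held to a spread instead. A share that went from 14.3% to 50% was thus labelled unchanged. The 3-day HOXA5 percentile, from 52.7 to 49.4, was labelled moved. For values from so few peaks the labels are no measure of stability. With the stronger 50% of each list, untreated SON peaks in the clusters fell from 7 to 3 (median percentile 80.9) and HMGB2 peaks from 13 to 7. Under a global IDR limit of 0.05, 4 of the untreated SON peaks were left (median percentile 72.1), and SON at 3 days had 0 peaks, 0 HOX genes and 0% of untreated peaks found, with no median percentile. With every list cut to its 5481 strongest peaks, untreated SON had 2 peaks (median percentile 84.7) and 3 HOX genes. Within gene spans alone, untreated SON peaks stood at 3 HOX genes and HMGB2 peaks at 7; with 1 kb added, untreated SON stood at 4. The share of untreated cluster peaks found at 3 days rose from 14.3% to 33.3% with the stronger 50% of each list and to 50% at equal list length, where 3 and 2 untreated peaks were left. By the values of replicate 1 or replicate 2, the 3-day HOXA5 peak had a percentile of 49.4 or 38.2. SON at 6 days stayed at 0 peaks and 0 genes in every setting run, but stricter or narrower settings could return nothing else. Those forced values are among the 65. The wider settings, a window of 10 kb at genes and a cluster flank of 20 kb, could have added peaks and also gave 0. No paired analysis was possible because each group has 1 list and no test was made, and for the same reason no replicate was left out. Depth is unknown, so absent peaks set no upper limit on occupancy.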

Other observations

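Outside the HOX clusters, 3 of 6 genes that mark fibroblasts had an HMGB2 peak within 5 kb (50%, interval 11.8% to 88.2%, against 23.3% of all genes), and 2 of them had many. COL1A1 and COL1A2, which encode the chains of type I collagen, had 8 and 10, and COL3A1 had 1, with a −log10 p of 21.0. FN1, VIM and THY1 had none. Untreated SON had a peak at 5 of these 6 genes (83.3%, interval 35.9% to 99.6%), against 57.1% of all genes. On days 3 and 6 of ICM it had one at 1, FN1 (16.7% each, interval 0.421% to 64.1%), against 41.0% and 21.5%. Each of these intervals holds the share of all genes. The strongest SON −log10 p of FN1 was 24.1, 8.20 and 7.24 in the 3 lists. Of 4 epithelial and blood genes, CDH1 had a weak untreated SON peak (−log10 p 4.28) and PTPRC had 3 in untreated cells and 2 on day 3. EPCAM and SFTPC had no peak in any list. None of the 4 had an HMGB2 peak (interval 0% to 60.2%, which holds the 23.3% of all genes). Peaks were thus listed at genes of both kinds, and they do not measure transcripts.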
